A study of Mus musculus with 6 samples.

Results

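Gnat1, Syne4, Dsg1c and Kcnk10 are 4 genes best known from tissues other than the liver, and they were chosen by the values measured in these same libraries, because their counts were low for liver and differed between p75NTR KO and wild-type (WT) mice. They are 4 of the 49671 genes in the liver count table, found by their Ensembl IDs in the GENCODE annotation of the mouse genome GRCm38. Since the KO and WT values chose them, their levels and fold changes are given as a description, without a test. Gnat1, Syne4 and Dsg1c had higher counts in every KO library than in any WT library, and Kcnk10 had lower counts.

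RNA of bulk liver tissue was measured by RNA-seq in 3 WT mice (replicates 1, 2 and 3) and 3 p75NTR KO mice (replicates 1, 2 and 4), and values per library are given below in this order. All mice were kept to an age of 6 months with no treatment named, and carry the strain label B6.1129S4-Ngfr/J -Jackson lab in both genotypes. The KO mice lack p75NTR, the neurotrophin receptor encoded by Ngfr, from birth and in all tissues, so that liver cells and the other tissues of the animal differ from WT at once. The sex of the mice is not named in the labels. The number of replicates counts libraries, and p-values below weigh the difference of KO and WT against the spread between these libraries.

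Gnat1 encodes the alpha subunit of rod transducin, the G protein that passes the light signal on to a phosphodiesterase in the photoreceptors of the retina. Syne4 encodes nesprin-4, a protein of the outer nuclear membrane that binds the motor kinesin-1 on the cytoplasmic side and SUN proteins inside the nuclear envelope, and so forms a LINC complex, the bridge between nucleus and cytoskeleton. It is known from secretory epithelia and from the outer hair cells of the inner ear, where its loss causes deafness. Dsg1c encodes a mouse form of desmoglein-1, a cadherin of the desmosomes that hold the cells of the epidermis together. Kcnk10 encodes TREK-2, a two-pore-domain (K2P) potassium channel that carries a background current and is opened by membrane stretch, heat and polyunsaturated fatty acids, and that is studied mainly in neurons.

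The libraries held 27107209 to 32664149 counts. Ngfr was counted 133, 144 and 78 times in the WT livers and 53, 27 and 47 times in the KO livers. These are counts of the whole gene, and the exons they came from were not analysed here, so they check the genotypes only in part. KO replicate 4 stood apart from the other 5 libraries. It held 4712 counts of 4 Y-linked genes against 0 to 2 elsewhere, and 16 counts of Xist, the transcript of the inactive X chromosome, against 6599 to 9554. Summed levels of male-biased liver genes were 320 to 395 CPM in WT, and those of female-biased liver genes were 2170 to 2700 CPM in WT. KO replicate 4 had 8730 CPM of male-biased and 41.4 CPM of female-biased genes. KO replicates 1 and 2 had 148 and 224 CPM of male-biased and 1810 and 1720 CPM of female-biased genes, below the WT ranges. CPM is the count of a gene relative to the total of its library, after TMM scaling. The quasi-likelihood test of edgeR called 0 of 13773 tested genes (0.0%) at an adjusted p under 0.05, although 988 were below 0.05 before adjustment. DESeq2 called 168 of 13201 (1.27%). Without KO replicate 4, edgeR called 114 of 14102 genes (0.808%) and DESeq2 411 of 12955 (3.17%), and edgeR on replicates 1 and 2 of both groups called 288 of 13898 (2.07%).

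All 4 genes passed the filter on low counts, and none had a library at 0 counts. Their mean level over the 6 libraries lay at percentile 38.9 of the 13773 tested genes for Gnat1, 36.7 for Dsg1c, 22.6 for Syne4 and 19.1 for Kcnk10, and all 4 lay below the median of 13.7 CPM. In all 4 the highest CPM of the lower group stayed below the lowest of the other group, which the choice of genes by this contrast had favoured; of all tested genes, 12.4% had ranges apart. In bulk tissue, fewer cells of a type and less RNA per cell cannot be told apart.

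**Figure D1:**
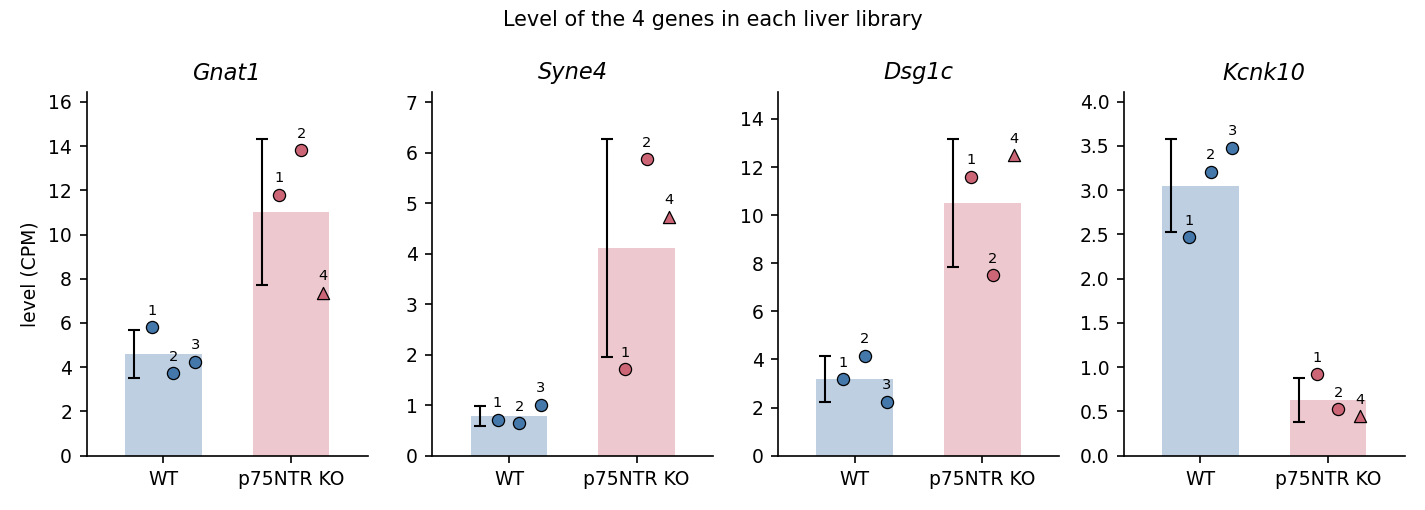
Level in CPM of each gene in each library. Points are libraries with their replicate numbers (triangle: KO replicate 4), pale bars are group means and black bars the SD (n = 3). Every KO point lies above every WT point for Gnat1, Syne4 and Dsg1c and below every WT point for Kcnk10, and the KO points of Syne4 spread from 1.71 to 5.87 CPM.

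Dsg1c, a cell adhesion gene (ENSMUSG00000034774.6, GRCm38 chromosome 18, 20247340 to 20285031, plus strand), was counted 98, 129 and 62 times in the WT livers. The KO livers gave 366, 243 and 364 counts. The lowest KO library therefore still held more Dsg1c reads than the highest WT library, at 1.81 times its CPM. Mean levels were 3.19 ± 0.95 CPM for WT livers and 10.5 ± 2.65 CPM for KO livers (SD, n = 3 each), with a log2 fold change of 1.72 (standard error, SE, 0.28) or 3.29-fold. The ratio of summed counts, scaled by library size, was 3.18 with an exact 95% interval of 2.79 to 3.64, which covers counting error only, as do the other count intervals here. KO replicate 4 was the highest library, at 2.01 above the WT mean on the log2 scale, and without it the log2 fold change was 1.58 (SE 0.29).

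Dsg1c lies in a cluster with its near copies Dsg1a and Dsg1b, which encode other forms of desmoglein-1. Of the 4014 stretches of 75 bases (the read length) in the annotated Dsg1c transcript, 20.0% also occur in transcripts of other genes, 17.9% in Dsg1a and 15.6% in Dsg1b. Dsg1a, whose start lies downstream at a gap of 25.8 kb, had 0 counts in all 6 libraries, and Dsg1b had 1, 0 and 1 counts in WT and 0, 2 and 0 in KO. Reads of the shared stretches cannot be told apart between the copies. The neighbour on the other side, Dsc1, a desmocollin gene 132 kb upstream, was also at 0 in every library. Neither neighbour of Dsg1c thus held any reads.

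Gnat1, the transducin gene (ENSMUSG00000034837.12, GRCm38 chromosome 9, 107674474 to 107679712, minus strand), was counted 179, 116 and 117 times in the WT livers. The KO livers gave 373, 447 and 215 counts. KO replicate 4 was the lowest of the KO livers and came closest to WT, with 1.27 times the CPM of the highest WT library. Mean levels were 4.59 ± 1.09 CPM for WT livers and 11.0 ± 3.30 CPM for KO livers (SD, n = 3 each). The log2 fold change was 1.26 (SE 0.27), or 2.39-fold, and the count ratio was 2.37 (95% interval 2.11 to 2.67). Relative to the WT mean, KO replicates 1, 2 and 4 were higher by 1.39, 1.61 and 0.71 on the log2 scale, so that leaving out replicate 4 gave a larger log2 fold change of 1.48 (SE 0.22).

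Gnat1 had 5 annotated neighbours within 50 kb, all with a row in the count table, and none overlapped it. The nearest was A930036K24Rik, an unverified transcript (type TEC in GENCODE) on the opposite strand, whose start lies 370 bases upstream of that of Gnat1. It was counted 35, 22 and 28 times in the WT livers and 56, 83 and 40 times in the KO livers. Every KO library was again above every WT library, and the order of the KO libraries was that of Gnat1. The log2 fold change of A930036K24Rik was 1.0 (SE 0.36, adjusted p = 0.615 and unadjusted p = 0.0244 by edgeR's quasi-likelihood test), and 1.19 without KO replicate 4 (adjusted p = 0.248). Gnat1 had 5.11, 5.27 and 4.18 reads per A930036K24Rik read in WT and 6.66, 5.39 and 5.38 in KO, so each KO ratio lay a little above each WT ratio. The 14 stretches of 75 bases that Gnat1 shares with transcripts of other genes (0.441% of 3173) match Gm13075 and Uchl5 on the opposite strand, not A930036K24Rik.

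The other 3 tested neighbours of Gnat1 had smaller log2 fold changes. Slc38a3, a glutamine transporter gene 4.94 kb downstream on the same strand, was at 1240, 1200 and 1650 CPM in the WT livers and 1540, 1460 and 1870 CPM in the KO livers, with overlapping groups. Its log2 fold change was 0.25 (SE 0.16, adjusted p = 0.853 by edgeR). Sema3f, which encodes a secreted semaphorin and ends 1.79 kb upstream of Gnat1, had a log2 fold change of 0.05 (adjusted p = 0.986 by edgeR). Gnai2, the gene of an inhibitory G protein alpha subunit 39.1 kb downstream, had 0.19 (SE 0.10, adjusted p = 0.800 by edgeR). Gm19721 did not pass the filter, with 1 count in 1 KO library.

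Syne4, the nesprin-4 gene (ENSMUSG00000019737.14, GRCm38 chromosome 7, 30314807 to 30319046, plus strand), was counted 22, 20 and 28 times in the WT livers. The KO livers gave 54, 190 and 138 counts. The WT libraries were close together and the KO libraries were not: the variance of the counts over their mean was 0.743 in WT and 37.0 in KO, and the highest KO library was 3.43 times the lowest in CPM. Mean levels were 0.791 ± 0.197 CPM for WT livers and 4.11 ± 2.15 CPM for KO livers (SD, n = 3 each), with a log2 fold change of 2.38 (SE 0.47) or 5.19-fold. The count ratio was 5.15 (95% interval 3.99 to 6.75). KO replicate 1 was higher than the WT mean by 1.14 on the log2 scale, replicate 2 by 2.92 and replicate 4 by 2.61, and the log2 fold change without replicate 4 was 2.27 (SE 0.51).

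The stretch before the Syne4 start is printed because the neighbour Alkbh6, on the same strand, ends 502 bases upstream of Syne4, so that this window begins between both genes and ends inside Syne4, past its annotated start. It covers 250 bases before to 50 after the RefSeq start, 5′ to 3′ on the plus strand of GRCm38.p6 (chr7:30314566-30314865), and capitals mark its match to TGACG, a part of the cyclic AMP response element.
Syne4 start: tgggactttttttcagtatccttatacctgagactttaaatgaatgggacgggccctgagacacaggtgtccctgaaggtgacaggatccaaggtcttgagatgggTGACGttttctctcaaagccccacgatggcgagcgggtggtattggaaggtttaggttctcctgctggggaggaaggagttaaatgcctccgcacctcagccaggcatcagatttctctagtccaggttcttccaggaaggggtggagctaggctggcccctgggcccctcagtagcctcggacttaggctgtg

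The window holds 7 CpG sites and 54.3% G and C, against a median of 7 sites and 52.7% over the 32851 mouse start windows in RefSeq. On both strands it was searched for TATAAA, the TATA box, CACGTG, an E-box, AGGTCA, a core site of nuclear receptors, TTATGTAA, the core of the D-box of PAR-bZIP factors, TGACTCA, the AP-1 site, and TGACG. None of these letters contains another of the motifs. TGACG occurred once, 144 bases before the start, and 20.8% of all windows hold it. The other motifs did not occur in the window, and they occur in 13.6%, 7.15%, 16.3%, 0.938% and 5.20% of all windows in the order given.

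The neighbours of Syne4 differed from it. Alkbh6, which encodes a protein of the AlkB oxygenase family, was counted 223, 155 and 182 times in the WT livers and 268, 272 and 155 times in the KO livers. Its groups overlapped, and the log2 fold change was 0.24 (SE 0.24, adjusted p = 0.923 by edgeR). Per 100 Alkbh6 reads there were 9.87, 12.9 and 15.4 Syne4 reads in WT and 20.1, 69.9 and 89.0 in KO, so the ratio to the upstream gene did not stay constant. Sdhaf1, an assembly factor of mitochondrial complex II 2.36 kb downstream on the opposite strand, had a log2 fold change of 0.24 (adjusted p = 0.897 by edgeR). The other tested genes within 50 kb were Clip3, Lrfn3, Wdr62 and E130208F15Rik, with 0.58, -0.23, -0.24 and 0.26. Of the 6 genes edgeR called 0 and DESeq2 0, beside 0.0% and 1.27% of all genes, and 0 had an unadjusted p under 0.05. Thap8, Gm25259, Gm24757 and 4930479H17Rik had 0 to 3 counts a library and were not tested.

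**Figure D2:**
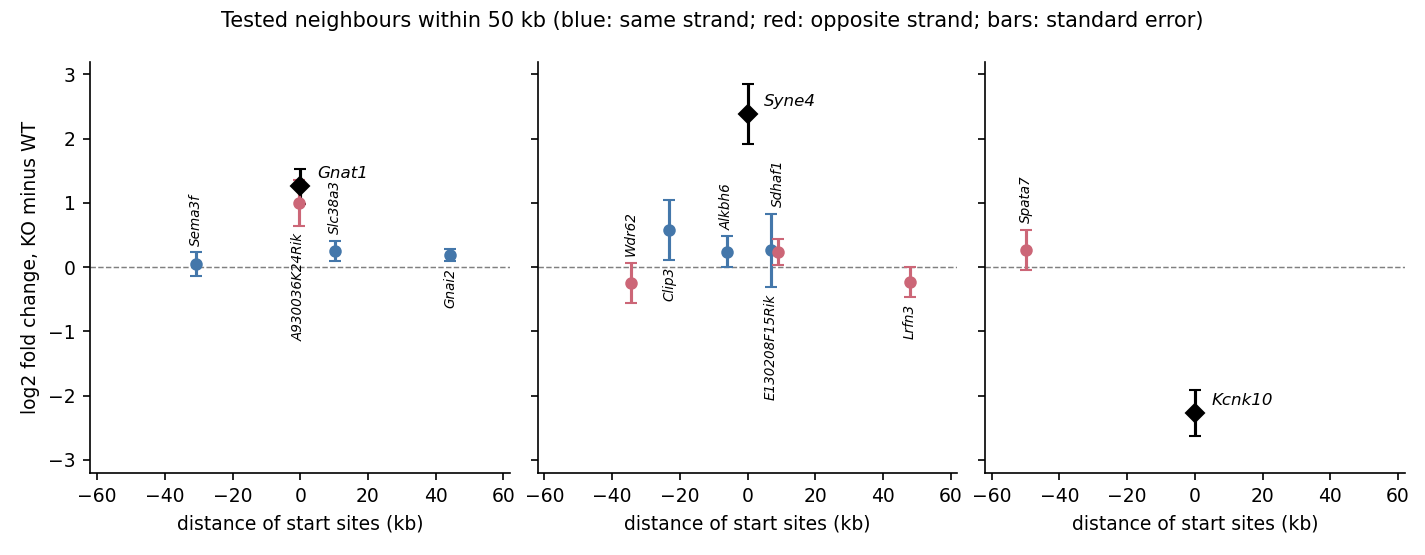
Log2 fold change (KO minus WT) against the distance of start sites in kb, positive downstream, for Gnat1, Syne4 and Kcnk10 (black diamonds) and their tested neighbours (circles, blue on the same strand and red on the opposite strand). Bars are standard errors. A930036K24Rik, at 1.0, lies beside Gnat1, and the neighbours of Syne4 lie between -0.24 and 0.58. Dsg1c had no tested neighbour.

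Kcnk10, the channel gene (ENSMUSG00000033854.9, GRCm38 chromosome 12, 98429437 to 98578310, minus strand), was the only gene of the 4 with lower counts in KO. It was counted 76, 100 and 96 times in the WT livers and 29, 17 and 13 times in the KO livers. The lowest WT library had 2.69 times the CPM of the highest KO library, the widest gap among the 4. Mean levels were 3.05 ± 0.524 CPM for WT livers and 0.630 ± 0.253 CPM for KO livers (SD, n = 3 each). The log2 fold change was -2.27 (SE 0.36), and summed WT counts, scaled by library size, were 4.88 times those of KO (95% interval 3.67 to 6.58). KO replicate 4 was the lowest library, at -2.76 from the WT mean on the log2 scale, against -1.72 and -2.52 in replicates 1 and 2. Without it the log2 fold change was -2.07 (SE 0.38).

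RefSeq lists 2 windows of starts for Kcnk10, both on the minus strand of GRCm38.p6, and they are printed because a gene with more than 1 start can change at either, which counts per gene do not separate. The first lies at chr12:98578164-98578463 and the second, within the gene, at chr12:98575078-98575377. Both are written 5′ to 3′ in the direction of the gene, and capitals in the second mark AGGTCA, the nuclear receptor core site.
Kcnk10 first start: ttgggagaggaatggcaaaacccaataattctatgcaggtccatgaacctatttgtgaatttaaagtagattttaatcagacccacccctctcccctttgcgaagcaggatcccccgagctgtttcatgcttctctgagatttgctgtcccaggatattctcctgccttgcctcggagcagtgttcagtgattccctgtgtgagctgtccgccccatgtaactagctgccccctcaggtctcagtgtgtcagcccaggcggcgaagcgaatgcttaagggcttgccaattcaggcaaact
Kcnk10 second start: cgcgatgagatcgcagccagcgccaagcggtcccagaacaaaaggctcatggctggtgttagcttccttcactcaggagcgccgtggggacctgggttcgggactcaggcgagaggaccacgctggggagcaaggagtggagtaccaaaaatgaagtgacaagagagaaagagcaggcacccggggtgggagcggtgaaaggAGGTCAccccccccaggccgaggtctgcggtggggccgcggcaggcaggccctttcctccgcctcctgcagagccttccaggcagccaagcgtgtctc

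The 2 Kcnk10 windows differ in base composition, with 7 CpG sites and 51.0% G and C in the first and 18 CpG sites and 64.3% in the second. The ratio of observed to expected CpG was 0.361 in the first and 0.587 in the second, against a median of 0.384 over all windows. Of the 6 motifs searched, the first window held none, and the second held AGGTCA once, 48 bases before the start, as do 16.3% of all windows. Which of the starts gave the counted reads was not tested.

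Kcnk10 had few neighbours with values. Spata7, a gene of photoreceptor cilia on the opposite strand with its start 49.8 kb upstream, was counted 37, 43 and 46 times in the WT livers and 42, 64 and 53 times in the KO livers. Its log2 fold change was 0.27 (SE 0.31, adjusted p = 0.935 by edgeR), opposite in sign to that of Kcnk10. Gm25486, 20.7 kb upstream, was at 0 in all libraries. The annotated transcripts 5330409N07Rik on the same strand and Gm40893 on the opposite strand overlap Kcnk10. Neither has a row in the count table, nor do Gm47346 and Gm47567, so overlapping genes could not be checked for Kcnk10. No stretch of 75 bases of the Kcnk10 or Syne4 transcripts occurs in transcripts of other genes.

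Per kilobase of annotated exon, which allows levels to be compared between genes, Gnat1 had 1.52 CPM per kb in WT and 3.63 in KO. The KO level was 2.58 CPM per kb for Dsg1c and 1.39 for Syne4, against WT levels of 0.781 and 0.268. Kcnk10, with the longest annotated exon sequence of the 4 (8.77 kb), was at 0.348 CPM per kb in WT and 0.0718 in KO. In WT the order was therefore Gnat1, Dsg1c, Kcnk10 and Syne4, and in KO it was Gnat1, Dsg1c, Syne4 and Kcnk10. The levels of Kcnk10 and Syne4 thus stood in opposite order in the 2 genotypes.

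Between libraries the 3 genes with higher KO counts did not follow a common order. Among the KO livers, Gnat1 was highest in replicate 2 and lowest in replicate 4, Syne4 was highest in replicate 2 and lowest in replicate 1, and Dsg1c was highest in replicate 4 and lowest in replicate 2. The root-mean-square difference of their log2 CPM, each centred on its own mean over the 6 libraries, was 0.64 between Gnat1 and Dsg1c, 0.85 between Gnat1 and Syne4 and 0.86 between Syne4 and Dsg1c. The same measure against Kcnk10, which went the other way, was 1.82 for Gnat1, 2.07 for Dsg1c and 2.41 for Syne4. All these distances contain the difference of genotypes by which the genes were chosen.

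The direction of the 4 genes was the same with and without the Y-positive KO replicate 4. With the ranges of KO and WT apart, leaving out any library could not reverse it. KO replicate 4 was the highest KO library for Dsg1c only, the lowest for Gnat1 and Kcnk10, and between the others for Syne4. Over 17 other ways of fitting, among them each library left out in turn, the log2 fold change ranged from 1.06 to 1.49 for Gnat1, from 2.03 to 2.75 for Syne4, from 1.36 to 1.95 for Dsg1c and from -2.63 to -1.97 for Kcnk10. The largest departure for Syne4 and for Kcnk10 came without KO replicate 1, the KO library nearest to WT for both genes.

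**Figure D3:**
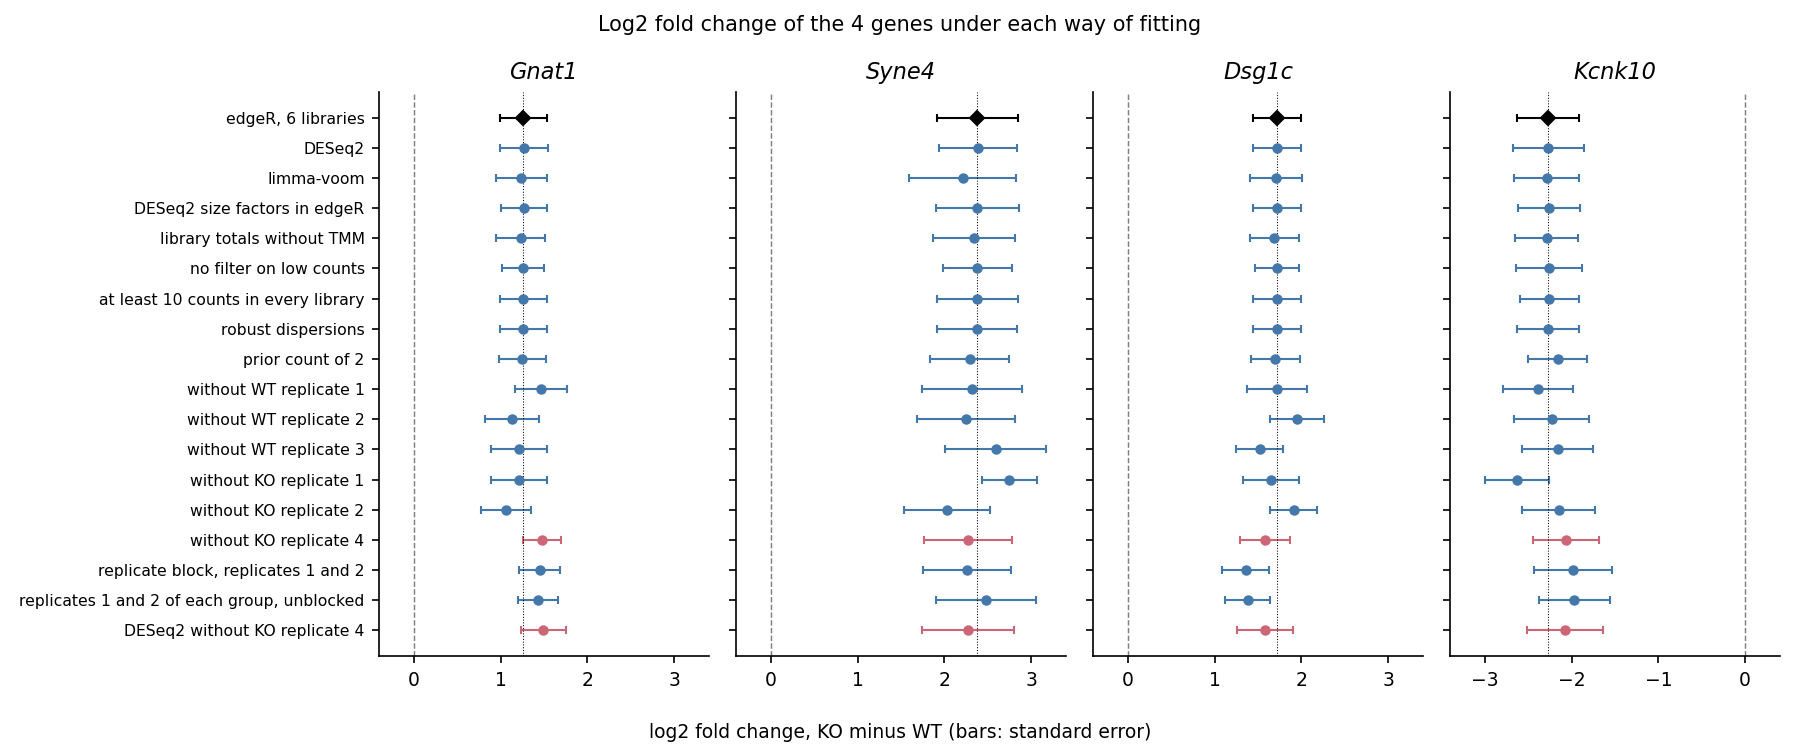
Log2 fold change (KO minus WT) of each gene with its standard error, on the x axis, for edgeR on 6 libraries (black diamond) and 17 other ways of fitting, 1 per row; fits without KO replicate 4 are in red. All points of Gnat1, Syne4 and Dsg1c lie above 0, the lowest being 1.06 for Gnat1, and all points of Kcnk10 lie below 0, the highest being -1.97.

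The families of the 4 genes had median log2 fold changes between -0.23 and 0.03. Without KO replicate 4 these medians lay between -0.39, for the 5 tested K2P channel genes, and -0.05, beside -0.004 over all tested genes. With all 6 libraries, edgeR called 0 of 13773 genes and DESeq2 168 of 13201 (1.27%). An unadjusted p under 0.05 by edgeR was found for 988 of the 13773. Counts of 0 calls in short lists therefore do not set these families apart from other genes. Of 15 other G protein alpha subunit genes, 12 were tested, and their median log2 fold change was 0.03 (7 positive and 5 negative), beside -0.001 over all tested genes. edgeR called 0 of them and DESeq2 0, and 1, Gnai1, had an unadjusted p of 0.0239, with 51, 47 and 25 counts in WT and 53, 95 and 118 in KO (log2 fold change 1.08, adjusted p = 0.614 by edgeR). The members with the highest mean CPM, Gnas, Gna12, Gnai3 and Gnai2, which couple receptors to adenylyl cyclase or, for Gna12, to the cytoskeleton, had log2 fold changes of -0.03, -0.27, -0.18 and 0.19. Of the nearest relatives of Gnat1, the cone transducin gene Gnat2 had 12, 11 and 18 counts in WT and 31, 16 and 6 in KO (log2 fold change 0.28, adjusted p = 0.963 by edgeR), and the taste gene Gnat3 had 0 in all libraries.

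The partners of transducin in rods were in part missing from the libraries. Of 21 other genes of rod phototransduction, 7 had 0 counts in all libraries, among them the phosphodiesterase subunits Pde6a and Pde6b, the channel gene Cnga1 and the kinase gene Grk1. The median of the 7 tested members was -0.09 (3 positive and 4 negative). edgeR and DESeq2 called 0, beside 0.0% and 1.27% of all genes, and 0 had an unadjusted p under 0.05. The 4 with the highest mean CPM were the G protein beta gene Gnb1 (-0.09), the trafficking genes Unc119 (-0.13) and Pde6d (-0.27), and the guanylate cyclase activator gene Guca1a (0.62).

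In the LINC complex and its partners, 20 of the 23 other genes were tested, with a median log2 fold change of -0.01 (9 positive and 11 negative). edgeR and DESeq2 called 0, beside 0.0% and 1.27% of all genes. Only 1, the lamin gene Lmnb2, had an unadjusted p under 0.05 (log2 fold change -0.42, adjusted p = 0.628 by edgeR). The other nesprin genes Syne1, Syne2 and Syne3, which tie the nucleus to actin, microtubules or intermediate filaments, had log2 fold changes of 0.33, -0.06 and -0.22. Per kilobase of exon the mean level in WT was 0.379 CPM for Syne1, 1.22 for Syne2, 1.77 for Syne3 and 0.268 for Syne4, the lowest of the nesprin genes. In KO it was 0.475, 1.17 and 1.52 CPM per kb for the first 3 and 1.39 for Syne4, which then lay between Syne2 and Syne3. The torsin cofactor genes Tor1aip2 and Tor1aip1 had -0.01 and -0.01, Sun2, the inner membrane partner of nesprins, had -0.22, and the kinesin light chain gene Klc4 had 0.19.

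Of 17 other desmosome genes, 11 were tested, with a median log2 fold change of -0.23 (3 positive and 8 negative). edgeR called 0 and DESeq2 0, beside 0.0% and 1.27% of all genes. The plakophilin genes Pkp2 and Pkp4 had unadjusted p-values of 0.0357 and 0.0267, with log2 fold changes of -0.31 and -0.32 (adjusted p = 0.675 and 0.623 by edgeR). Most members thus had a sign opposite to that of Dsg1c. Dsg2, the desmosomal cadherin of simple epithelia, averaged 173 CPM for WT livers and 157 CPM for KO livers (log2 fold change -0.13), and the other members with high CPM, Perp and the plaque gene Dsp, had -0.12 and -0.23. The epidermal cadherin genes Dsg3, Dsg4, Dsc1 and Dsc3 were, like Dsg1a, at 0 in all libraries.

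Of 13 other K2P channel genes, 5 were tested, with a median of -0.02 (2 positive and 3 negative). edgeR and DESeq2 called 0, beside 0.0% and 1.27% of all genes, and 1 gene, Kcnk5, had an unadjusted p under 0.05. Kcnk5, which encodes the acid-sensitive channel TASK-2, was the K2P gene with the highest mean CPM, with counts of 1197, 1300 and 1012 in WT and 1626, 2104 and 1152 in KO (log2 fold change 0.41, adjusted p = 0.690 by edgeR). The groups overlapped, since KO replicate 4 lay within the WT range. Kcnk6, Kcnk13 and Kcnk3 had log2 fold changes of -0.18, -0.02 and -0.62. The nearest relatives of Kcnk10 were nearly undetected, with 9, 5 and 8 counts in WT and 10, 3 and 2 in KO for Kcnk2, which encodes TREK-1, and 0 to 3 counts a library for Kcnk4, which encodes TRAAK.

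**Figure D4:**
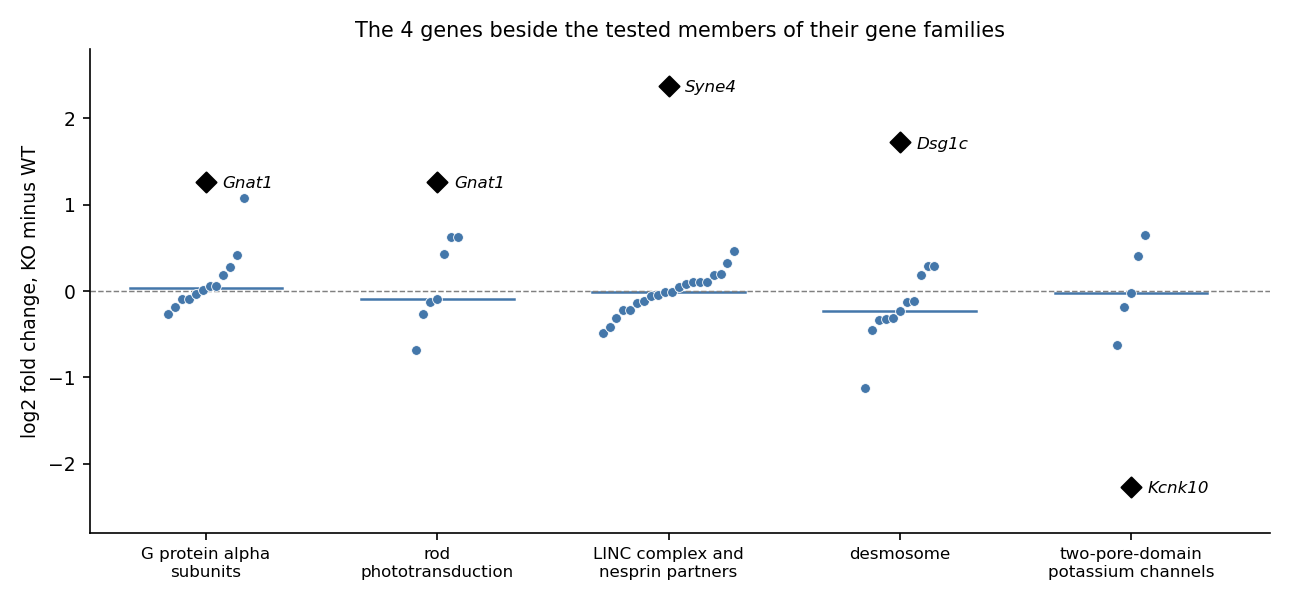
Log2 fold change (KO minus WT) of Gnat1, Syne4, Dsg1c and Kcnk10 (black diamonds) and of the other tested members of the 5 gene lists (blue circles, in order of value), with the median of those others as a line. The medians lie between -0.23 and 0.03, and the 4 genes lie at 1.26, 2.38, 1.72 and -2.27; since they were chosen by these values, their place outside their families is a description.

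Markers of the tissues in which the 4 genes are best known were low. The 12 photoreceptor markers summed to 5.69 to 6.46 CPM in WT and 3.64 to 6.15 CPM in KO, with 6 of them (Pde6a, Cnga1, Rcvrn, Prph2, Nrl and Crx) at 0 in all libraries. Of 14 keratinocyte markers 7 were at 0 everywhere, Krt14 and Krt1 among them, and the sum was 4.42 to 6.46 CPM in WT and 3.88 to 6.09 CPM in KO. The hair cell list summed to 13.0 to 15.7 CPM in WT and 10.3 to 14.2 CPM in KO, mostly Myo7a, with 4 of 6 markers (Otof, Atoh1, Pou4f3 and Tmc1) at 0. Single genes carried the other sums as well: Rom1 alone had 4.42 to 5.37 CPM in WT and 2.95 to 4.91 CPM in KO, and Lor and Krt10 were the largest of the keratinocyte list, with log2 fold changes of -0.84 and 0.60. Pde6g, a rod phosphodiesterase subunit, was counted 7, 10 and 9 times in the WT livers and 18, 12 and 12 times in the KO livers (log2 fold change 0.62). The part of such cells in the values of Gnat1, Dsg1c and Syne4 was not tested.

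Markers of other cells in or near liver varied between libraries. Neuronal and glial markers, 9 of 9 detected, summed to 14.7 to 32.2 CPM in WT, a range that held all 3 KO sums. Syt1 alone had 10.3 to 26.3 CPM in WT and 12.5 to 15.7 CPM in KO, and Sox10 had only 1 count, in WT replicate 3. The 8 cholangiocyte markers, for the epithelium of the bile ducts, summed to 43.6 to 81.1 CPM in WT and 45.3 to 95.7 CPM in KO, and their highest KO values, 87.9 and 95.7 CPM, were in replicates 2 and 4, which also had the highest Syne4 levels. WT replicate 1, however, had 81.1 CPM of cholangiocyte markers and 0.715 CPM of Syne4. Spp1 was the largest part of these sums, with 21.1 to 53.8 CPM in WT and 24.4, 58.9 and 60.7 CPM in KO. Krt19 was at 0.797 to 2.08 CPM in WT and 1.27, 2.69 and 1.17 CPM in KO. Krt7 had 0.58 to 1.36 CPM in WT and 1.04, 1.08 and 0.755 CPM in KO. The part of bile duct cells in the Syne4 values was not tested. Pancreatic acinar markers summed to 0 to 0.145 CPM in WT and 0 to 0.0317 CPM in KO. The hepatocyte markers, which check the tissue label, summed to 120000 to 137000 CPM in WT and 112000 to 130000 CPM in KO.

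The genes whose pattern over the 6 libraries was most like that of each gene were found by the smallest root-mean-square difference of centred log2 CPM among the 13773 tested genes, as a description. For Gnat1 they were Hebp2, a heme-binding protein gene (0.195), the neighbour A930036K24Rik (0.198) and Lrg1, which encodes a plasma glycoprotein secreted by hepatocytes (0.208). Lrg1 had 368, 325 and 409 CPM in WT and 917, 924 and 594 CPM in KO, so that, as for Gnat1, KO replicate 4 was the lowest KO library. For Dsg1c they were Eif4ebp3, a repressor of translation (0.259), the podosome adaptor gene Sh3pxd2b (0.290) and Adam11, of the ADAM family (0.327). For Kcnk10 they were Dmrt2, a transcription factor gene (0.373), Ehhadh, which encodes the bifunctional enzyme of peroxisomal beta-oxidation (0.381), and the tetraspanin gene Tspan32 (0.412). Ehhadh was expressed at 1590, 1410 and 1190 CPM in WT and 377, 396 and 240 CPM in KO, and replicate 4 was the lowest library, as for Kcnk10. Within WT, however, Ehhadh fell from replicate 1 to 3, whereas Kcnk10 rose (2.47, 3.21 and 3.48 CPM). KO replicate 2 was above replicate 1 for Ehhadh and below it for Kcnk10. All distances of this measure contain the difference of genotypes by which the 4 genes were chosen.

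Syne4 had 1 close match, the antisense transcript gene Gm12195 (0.240), with 0.162, 0.193 and 0.254 CPM in WT and 0.348, 1.08 and 1.10 CPM in KO. As for Syne4, KO replicate 1 lay well below the other KO libraries. The next were Prtn3, a serine protease of neutrophil granules (0.471), and Slc2a4, the gene of the glucose transporter GLUT4 (0.504). These 3 genes all had mean levels below 1 CPM, where counting error is a large part of the spread. So did Hebp2 for Gnat1, Eif4ebp3 for Dsg1c, and Dmrt2 and Tspan32 for Kcnk10.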

How the data were processed

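RNA-seq of mouse liver was analysed in 3 WT and 3 p75NTR KO libraries, grouped by the genotype in the labels. Per the study's methods and processing notes, the authors purified mRNA on polyA-binding beads, prepared strand-marked libraries for single-end reads, used Trimmomatic for trimming and STAR 2.5.0c for alignment (GRCm38.p5, GENCODE M12), and deposited raw featureCounts counts per gene, with no normalization. The sources used here give neither the strand setting nor the handling of reads with several matches. Of 49671 genes, 49412 had an ID in GENCODE M21, used for symbols, positions, exon lengths and neighbours within 50 kb. Sequence around starts came from RefSeq.

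The 4 genes and all lists were chosen with earlier results of these data known. Counts were fitted with edgeR 4.0.16 (R 4.3.3; filterByExpr, TMM, glmQLFit and glmQLFTest, Benjamini-Hochberg adjustment over all tested genes, call at adjusted p under 0.05), with DESeq2 1.42.0 and limma-voom (limma 3.58.1) as alternatives. These fits, and no other step, were tested on simulated counts. Standard errors of edgeR fits are the absolute log2 fold change over the square root of F, and those of DESeq2 and limma-voom come from their own fits. Intervals of count ratios are exact binomial. Named genes were the 4 genes, their overlapping or nearest genes and tested genes within 50 kb, in each of 5 related lists the called or else the 4 most abundant tested members with the closest paralogs, the 3 genes nearest in pattern to each, and Ngfr, Xist and Y-linked genes. Genes named for an unadjusted p under 0.05 or for a count of 0, and the marker genes named, were picked after their values were seen. Other settings were other size factors, other filters, robust dispersions, a prior count of 2, each library left out, and a replicate block. DESeq2 without KO replicate 4 was added after the data were seen. Some of the genes in these lists are not reported here.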

Additional observations from a re-analysis of the deposited data

How the results depend on the processing

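The 4 genes kept their direction in all 72 values from other settings, and each value moved by less than the spread between replicates. Because their KO and WT ranges were apart, as the choice of genes favoured, leaving out a library could not reverse any direction. Leaving out 1 of 3 libraries also shifts a group mean of log2 values by less than this spread, so both results are description. With 1 library left out, the log2 fold change ranged from 1.06 to 1.48 for Gnat1, from 2.03 to 2.75 for Syne4, from 1.52 to 1.95 for Dsg1c and from -2.63 to -2.07 for Kcnk10. The number of genes called over the whole table did depend on the setting. edgeR on 6 libraries called 0 higher and 0 lower in KO, DESeq2 called 85 and 83, limma-voom 1 and 4, edgeR without a filter on low counts 69 and 67, and edgeR with robust dispersions 3 and 6. With 1 library left out the counts ranged from 0 to 50 higher and from 0 to 64 lower, and only the omission of KO replicate 4 gave any. DESeq2 without that library, a setting chosen after the data were seen, called 177 and 234. A replicate block over replicates 1 and 2 of both groups gave 154 and 178 calls, and the same 4 libraries without a block 131 and 157. Nothing names equal numbers as pairs, and the deviations of same-numbered libraries from their group means correlated at -0.124 and 0.0259 across genes. In the block, the log2 fold changes were 1.45 for Gnat1, 2.26 for Syne4, 1.36 for Dsg1c and -1.99 for Kcnk10. Of 85 list medians under other settings 10 moved, and DESeq2 without KO replicate 4, which called 3.17% of all genes, called Gna12, Dsc2 and Pkp4 lower and Kcnk5 higher. The 4 libraries without a block, with 2.07% called, also gave Gna12 as lower. The genes nearest in pattern were less stable, since without KO replicate 4 only 1 of 3 stayed for Gnat1 and for Syne4 and 0 for Dsg1c and Kcnk10, and with a prior count of 2 only 1 stayed for Dsg1c and 2 for Kcnk10. The cause of these changes was not tested. Depth limits Syne4 in WT (20 to 28 counts) and Kcnk10 in KO (13 to 29 counts).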
